A study of Mus musculus with 8 samples.

Results

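Small nucleolar RNAs and the long non-coding transcripts that carry them were followed in mouse brain endothelial cells given Norrin. The members are the rows of the deposited gene table whose name starts with Snora, Snord, Scarna or Snhg, together with Gas5. There are 127 of them among 15452 named rows: 69 box C/D small nucleolar RNAs (snoRNAs, Snord), 34 box H/ACA snoRNAs (Snora), 9 small Cajal body RNAs (scaRNAs) and 15 host transcripts. Membership goes by name alone.

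The cells were bEnd.3, an immortalised mouse brain endothelial line, a single line and not tissue. Control cultures received vehicle (PBS with bovine serum albumin), although a treatment tag of the same samples reads untreated. Treated cultures received recombinant Norrin, a ligand of the receptor Frizzled-4, at 200 ng/ml, added 24 h after seeding and left for 24 h. Each group had 4 libraries, called biological replicates without saying what set them apart, and a p-value here reflects only how much these cultures varied. Total RNA was depleted of ribosomal RNA and made into libraries with a random-primed low-input kit, which does not select small RNAs.

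SnoRNAs guide chemical modification of other RNAs. Box C/D snoRNAs direct ribose methylation and box H/ACA snoRNAs direct pseudouridylation, mostly of ribosomal RNA in the nucleolus, while scaRNAs act on spliceosomal RNAs in Cajal bodies. In mammals most are cut from introns of a host gene after splicing, and Snhg genes and Gas5 are hosts whose spliced RNA encodes no known major protein and is often degraded by nonsense-mediated decay.

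The sequences of 5 members show the features that define the classes and the degree to which related rows can share reads. They are from GENCODE M21 (GRCm38), which may not be the build the authors used, and are printed on the strand of the gene. Capitals mark TGATGA, a C box, and CTGA, a D box, in box C/D members, or the ACA that lies 3 bases before the end in box H/ACA members. Snord15b and Snord22 were the most abundant box C/D members and Snora23 the most abundant box H/ACA member by count.
Snord15b: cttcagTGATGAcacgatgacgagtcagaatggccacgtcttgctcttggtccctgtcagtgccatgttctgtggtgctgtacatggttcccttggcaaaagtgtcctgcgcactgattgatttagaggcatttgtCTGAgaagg
Snord22: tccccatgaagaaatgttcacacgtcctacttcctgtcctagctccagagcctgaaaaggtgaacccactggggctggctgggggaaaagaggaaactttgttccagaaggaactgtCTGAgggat
Snora23: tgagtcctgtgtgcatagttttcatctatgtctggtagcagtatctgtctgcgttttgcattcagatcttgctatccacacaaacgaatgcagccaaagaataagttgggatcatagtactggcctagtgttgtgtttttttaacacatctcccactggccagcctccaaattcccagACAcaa
Snora73a: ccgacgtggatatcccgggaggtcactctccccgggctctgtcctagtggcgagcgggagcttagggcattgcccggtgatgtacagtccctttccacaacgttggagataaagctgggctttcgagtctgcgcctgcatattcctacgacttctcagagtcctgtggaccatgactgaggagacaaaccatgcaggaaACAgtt
Snora73b: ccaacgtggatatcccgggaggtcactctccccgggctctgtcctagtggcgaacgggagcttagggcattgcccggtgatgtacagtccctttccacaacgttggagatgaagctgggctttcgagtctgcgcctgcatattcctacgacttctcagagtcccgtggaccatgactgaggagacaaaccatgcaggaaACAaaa

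On the gene's strand, the letters TGATGA followed by CTGA were found in 47 of 68 box C/D sequences, in 0 of 32 box H/ACA sequences and in 5 of 9 scaRNA sequences. ACA placed 3 bases before the end was found in 26 of 32 box H/ACA sequences, in 0 of 68 box C/D sequences and in 2 of 9 scaRNA sequences. Snord22 has no exact TGATGA in this sequence. The paired copies Snora73a and Snora73b were 96.6% identical, Snord14c and Snord14d 97.7%, and Snord1b and Snord1c 97.4%. How the authors' counting shared reads between such copies is not given, so those rows are uncertain, whereas Snord15a and Snord15b were 66.0% identical.

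No member passed the test of Norrin against vehicle. With edgeR's quasi-likelihood test and Benjamini-Hochberg adjustment over 13666 tested rows, 0 of the 97 tested members had an adjusted p under 0.05, against 2.17% of all tested rows (1.2% higher and 0.966% lower). DESeq2 and limma-voom likewise called 0, while edgeR with the replicate number as a block called 4 snoRNAs. Without Norrin replicate 4, edgeR called Snora65, Snora7a and Snhg8. At an unadjusted p under 0.05 there were 10 members, 8 snoRNAs or scaRNAs and 2 hosts, against 11.3% of all tested rows. The other 30 members had too few counts to be tested, at most 70 over the 8 libraries. In bulk libraries fewer cells making an RNA and less RNA per cell cannot be told apart. Levels were nonetheless mostly higher under Norrin: 71 of the 83 tested snoRNAs and scaRNAs had a log2 fold change above 0, or 85.5%, against 51.3% of all tested rows. Their median log2 fold change was 0.30, beside 0.00 for all rows tested, and 10 of 14 hosts were above 0 with a median of 0.09.

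Much of that difference came with a single library, Norrin replicate 3. The summed level of the snoRNAs and scaRNAs, as CPM (counts scaled to library size with TMM factors), was 1225, 1012, 1164 and 1048 in vehicle replicates 1 to 4. In Norrin replicates 1 to 4 it was 1357, 1133, 1877 and 1063. Norrin replicate 3 stood above every other library, Norrin replicate 1 was next, and Norrin replicates 2 and 4 lay among the vehicle values. The group means were 1112 ± 99.2 and 1357 ± 368 CPM (SD, n = 4 each), a ratio of 1.22, and the ratio was 1.06 without Norrin replicate 3.

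Norrin replicate 3 was the highest of the 8 libraries for 68 of 83 tested snoRNAs and scaRNAs, or 81.9%, against 13.2% of all tested rows. Its level was a median of 2.02 times the mean of the other 3 Norrin libraries over box C/D snoRNAs, 1.65 times over box H/ACA snoRNAs, 1.12 times over scaRNAs and 1.16 times over hosts. The median over all tested rows was 0.995. Without this library, 50 of 83 snoRNAs and scaRNAs had a log2 fold change above 0, with a median of 0.06, and 50% of 13835 tested rows did. By class, 20 of 44 box C/D snoRNAs, 25 of 33 box H/ACA snoRNAs and 5 of 6 scaRNAs were then above 0, with median log2 fold changes of -0.03, 0.10 and 0.13. Without Norrin replicates 1 and 3 together, 33 of 85 tested snoRNAs and scaRNAs were above 0 and the median was -0.07.

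**Figure D1:**
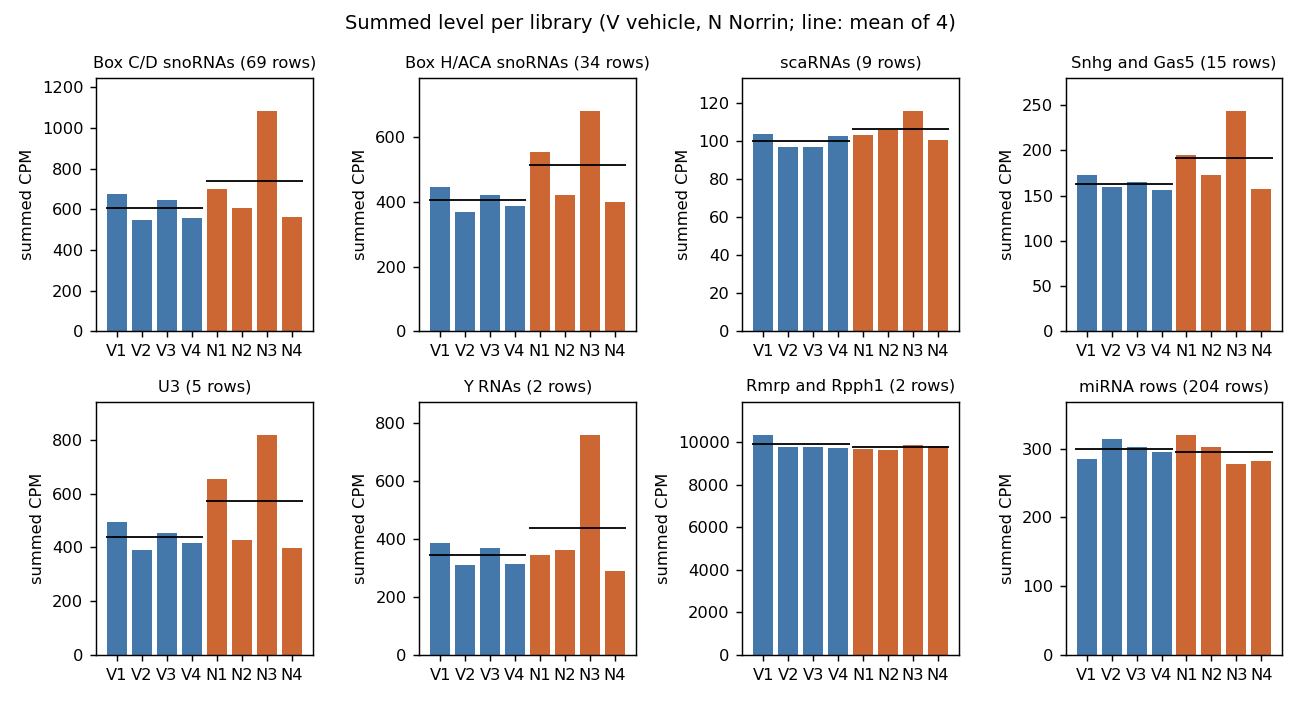
Summed CPM in each library for the 4 member classes and for other small RNA rows; bars are libraries (V vehicle, N Norrin), and the line is the mean of the 4 libraries of a group. Norrin replicate 3 reached 1081 CPM for box C/D snoRNAs and 758 CPM for Y RNAs, above all other libraries, while Rmrp and Rpph1 summed lay between 9630 and 10325 CPM.

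Other short transcripts of the table were also high in Norrin replicate 3. The Y RNA rows, small RNAs bound by the Ro60 protein, summed to 385, 309, 369 and 315 CPM under vehicle and to 344, 362, 758 and 290 CPM under Norrin. Norrin replicate 3 was 2.28 times the mean of the other Norrin libraries there, 2.26 times for 5S ribosomal RNA (Rn5s), 1.75 times for the spliceosomal U1 rows and 1.66 times for the U3 rows. U3, a box C/D snoRNA outside the naming rule, was also 1.59 times as high in Norrin replicate 1 as in Norrin replicates 2 and 4. Not every row of a small or nuclear RNA followed: the same ratio for Norrin replicate 3 was 1.02 for Rmrp and Rpph1, 0.975 for Rn7sk and 0.922 for 204 miRNA rows. Since the kit does not select small RNAs, the miRNA rows may not measure mature miRNAs, and 117 of them had 0 counts in a library. Among rows added after values were seen, it was 2.45 over 288 tRNA rows and 0.983 over 92 ribosomal protein rows. The part that library preparation or RNA recovery had in these differences was not tested.

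The longest members had the smallest median excess. The length used first is the counted length, the one implied by the deposited RPKM values, which equals the RefSeq span of the row. For 12 of 109 members it is also the length of the GENCODE M21 sequence. Over 32 tested snoRNAs and scaRNAs counted over fewer than 80 bases, Norrin replicate 3 was a median of 1.97 times the other Norrin libraries. Over 34 counted over at least 80 but under 130 bases the median was 1.91, and over 17 counted over 130 bases or more it was 1.52. With GENCODE lengths, an alternative added after seeing the data, the medians were 2.11 over 19 members, 1.99 over 27 and 1.52 over 35. Class and length go together: with GENCODE lengths 26 of the 35 longest were box H/ACA snoRNAs and 18 of the 19 shortest were box C/D snoRNAs. Abundance goes with length too: by counted length the median total counts were 304, 435 and 4339 from the shortest to the longest bin. Within box C/D snoRNAs by counted length the medians were 2.09 over 27 members, 2.07 over 13 and 1.48 over 4, the last bin being thinly filled.

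**Figure D2:**
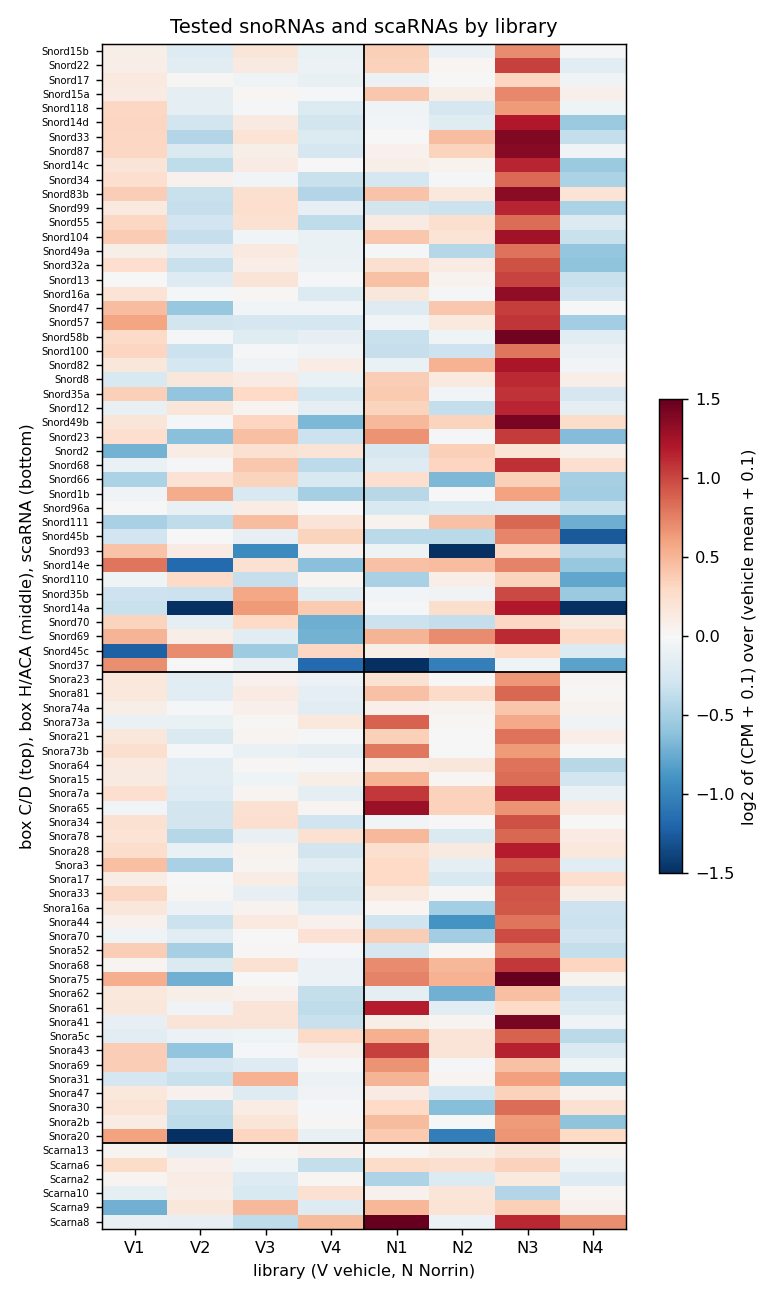
Log2 of CPM over the vehicle mean (0.1 added to both) for the 83 tested snoRNAs and scaRNAs, by library, in class blocks sorted by total count. The Norrin replicate 3 column is above the vehicle mean for most members, and the Norrin replicate 1 column is high for a set of box H/ACA members that includes Snora65, Snora61, Snora73a and Snora73b.

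Box C/D snoRNAs were the largest class and the one most raised in Norrin replicate 3. Their summed level was 606 ± 62.9 CPM under vehicle and 736 ± 237 CPM under Norrin (SD, n = 4 each), and the Norrin mean without replicate 3 was 622 ± 70.6 CPM (n = 3). Of 44 tested members, 0 passed the test, 36 had a log2 fold change above 0, and Norrin replicate 3 was the highest library for 37.

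Snord15b, a guide for methylation of large subunit ribosomal RNA, was the most abundant member both by count and per length, with a deposited vehicle RPKM of 953 in the authors' deposited table. Its counts were 1842, 1711, 2440 and 1618 under vehicle and 2636, 1771, 3107 and 1861 under Norrin. In CPM these were 147, 121, 157 and 130 against 179, 129, 227 and 137. The groups overlapped, with Norrin replicates 2 and 4 inside the vehicle range, and the log2 fold change was 0.28 ± 0.20 (SE, edgeR adjusted p = 0.741), and 0.10 ± 0.13 without Norrin replicate 3. Snord15a, its partner in the same host, had 1033, 973, 1194 and 919 counts under vehicle and 1472, 1097, 1695 and 1082 under Norrin. In CPM, vehicle replicate 1, at 82.5, reached above the lowest Norrin library, at 79.8, and the log2 fold change was 0.35 ± 0.15 (adjusted p = 0.462), and 0.20 ± 0.08 without Norrin replicate 3.

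Snord22, the U22 snoRNA known from frog oocytes to be needed for processing of small subunit ribosomal RNA, was next in abundance, with a vehicle RPKM of 852 in the authors' deposited table. Its counts were 1440, 1355, 1839 and 1262 under vehicle and 2016, 1500, 2988 and 1302 under Norrin. Norrin replicate 3 had 1.92 times the mean level of the other Norrin libraries, at 219 CPM, while Norrin replicate 4, at 96.1 CPM, lay just above the vehicle minimum of 95.9 CPM. The log2 fold change was 0.38 ± 0.27 (adjusted p = 0.731), and 0.08 ± 0.11 without Norrin replicate 3.

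Snord118, the U8 snoRNA needed for maturation of large subunit ribosomal RNA, had 42.4, 30.9, 33.9 and 29.6 CPM under vehicle and 32.7, 28.7, 53.1 and 32.7 CPM under Norrin. A single Norrin library lay above all vehicle libraries. Its log2 fold change of 0.11 ± 0.22 (adjusted p = 0.924) became -0.12 without that library. Snord17, counted over 221 bases, varied less: it ran from 82.3 to 98.5 CPM under vehicle and from 83.9 to 111 CPM under Norrin, with a log2 fold change of 0.06 ± 0.08 (95% interval -0.11 to 0.22, adjusted p = 0.879).

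The largest excess of all tested members in Norrin replicate 3 was that of Snord58b. It had 63, 57, 56 and 47 counts under vehicle and 48, 54, 156 and 50 under Norrin, so that Norrin replicate 3 was 3.15 times the other Norrin libraries and those 3 lay inside or close to the vehicle range. Snord99, Snord14d and Snord87 had ratios of 2.85, 2.72 and 2.37, while Snord96a, Snord2 and Snord70, also box C/D, had 1.04, 1.09 and 1.44. The log2 fold changes of Snord58b, Snord99 and Snord14d were 0.44, 0.18 and 0.27 with all libraries and -0.18, -0.36 and -0.24 without Norrin replicate 3.

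The 2 box C/D members with an unadjusted p under 0.05 were Snord49b and Snord83b. Snord49b had 2.56, 2.19, 2.83 and 1.37 CPM under vehicle and 3.18, 2.85, 6.15 and 2.73 CPM under Norrin, a log2 fold change of 0.73 ± 0.31 (adjusted p = 0.330). Snord83b had 7.67, 4.67, 7.02 and 4.34 CPM under vehicle and 7.99, 6.64, 15.3 and 6.86 CPM under Norrin, a log2 fold change of 0.63 ± 0.27 (adjusted p = 0.344). In both, Norrin replicate 3 was far above the next highest library, and without it the log2 fold changes were 0.38 ± 0.33 and 0.28 ± 0.22. At the other end, Snord37 had the lowest log2 fold change of all tested members, -0.89 ± 0.55 (adjusted p = 0.604), on 18, 12, 12 and 4 counts under vehicle and 3, 5, 11 and 6 under Norrin. Snord96a was the single member whose Norrin libraries all lay below the vehicle libraries, an arrangement found in 3.58% of all tested rows, with 1.61 ± 0.103 against 1.35 ± 0.0635 CPM and a log2 fold change of -0.25 ± 0.35 (adjusted p = 0.876).

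Box H/ACA snoRNAs held the members with the smallest p-values and were high in Norrin replicate 1 as well as in replicate 3. Their summed level was 448, 367, 421 and 387 CPM under vehicle and 554, 422, 680 and 401 CPM under Norrin. Norrin replicate 1 was 1.35 times the mean of Norrin replicates 2 and 4, which both lay within the vehicle range. Of 33 tested members 0 passed the test and 31 had a log2 fold change above 0.

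Snora65, a guide for pseudouridylation of large subunit ribosomal RNA, had the lowest adjusted p of all members. It had 77, 74, 116 and 81 counts under vehicle and 231, 111, 139 and 94 under Norrin, or 6.15, 5.24, 7.47 and 6.51 CPM against 15.6, 8.10, 10.2 and 6.94 CPM. Norrin replicate 1 was the highest library and Norrin replicate 4 lay inside the vehicle range. The log2 fold change was 0.69 ± 0.21 (adjusted p = 0.0995), it was 0.69 ± 0.23 without Norrin replicate 3 (adjusted p = 0.171), and it passed without Norrin replicate 4 at 0.83 ± 0.21 (adjusted p = 0.0180).

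Snora7a behaved alike in Norrin replicates 1 and 3. It had 8.94, 6.51, 7.66 and 6.75 CPM under vehicle and 15.6, 9.49, 16.7 and 6.94 CPM under Norrin, with Norrin replicate 4 again inside the vehicle range. The log2 fold change was 0.71 ± 0.23 (adjusted p = 0.157), it was 0.90 ± 0.19 without Norrin replicate 4 (adjusted p = 0.00334), and it was 0.52 ± 0.22 without Norrin replicate 3 (adjusted p = 0.349).

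Snora68 was the single member whose 4 Norrin libraries all lay above the 4 vehicle libraries, against 3.43% of all tested rows. It had 31, 29, 44 and 28 counts under vehicle and 59, 47, 70 and 41 under Norrin, or 2.40 ± 0.334 against 3.89 ± 0.912 CPM, a log2 fold change of 0.69 ± 0.27 (adjusted p = 0.255). Snora75 had 38, 17, 32 and 24 counts under vehicle and 52, 41, 85 and 29 under Norrin, a log2 fold change of 0.86 ± 0.33 (adjusted p = 0.247), and 0.50 ± 0.35 without Norrin replicate 3. Snora28 had a log2 fold change of 0.50 ± 0.23 (adjusted p = 0.392), and 0.18 ± 0.22 without Norrin replicate 3. Its Norrin libraries other than replicate 3 lay between 5.69 and 6.10 CPM, inside the vehicle range.

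Among abundant box H/ACA members the same libraries stood out. Snora81 had 63.8, 51.2, 62.6 and 51.7 CPM under vehicle and 77.8, 70.1, 105 and 58.0 CPM under Norrin, a log2 fold change of 0.44 ± 0.19 (adjusted p = 0.475), and 0.26 ± 0.10 without Norrin replicate 3. The values of 3 of 4 Norrin libraries lay above all vehicle libraries. Snora23 and Snora21, guides with ribosomal RNA targets, had log2 fold changes of 0.26 ± 0.15 (adjusted p = 0.606) and 0.35 ± 0.19 (adjusted p = 0.563), which were 0.10 ± 0.09 and 0.16 ± 0.10 without Norrin replicate 3. Snora73a and Snora73b, the U17 snoRNAs, which take part in ribosomal RNA cleavage more than in modification, were highest in Norrin replicate 1, not in replicate 3. Snora73a had 507, 569, 682 and 601 counts under vehicle and 1180, 602, 880 and 563 under Norrin, and Snora73b had 502, 468, 489 and 379 against 867, 460, 718 and 456. Their log2 fold changes were 0.41 ± 0.23 (adjusted p = 0.611) and 0.40 ± 0.22 (adjusted p = 0.575), and reads may be split between these near-identical rows.

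The summed level of scaRNAs varied least between libraries. It was 99.7 ± 3.62 CPM under vehicle and 106 ± 6.57 CPM under Norrin (SD, n = 4 each). Scarna13, the most abundant, ran from 54.4 to 63.0 CPM under vehicle and from 60.6 to 68.2 CPM under Norrin, a log2 fold change of 0.09 ± 0.07 (95% interval -0.06 to 0.24, adjusted p = 0.755). Scarna10 was lowest in Norrin replicate 3, with 97 counts against 134 to 151 in the other Norrin libraries, and its log2 fold change was -0.02 ± 0.17 (adjusted p = 0.984). Scarna2 had -0.16 ± 0.15 (adjusted p = 0.781) and Scarna6 had 0.21 ± 0.15 (adjusted p = 0.680). Scarna8 had the highest log2 fold change of all tested members, 1.02 ± 0.44 (adjusted p = 0.330), on 9, 10, 9 and 14 counts under vehicle and 36, 10, 25 and 18 under Norrin, with Norrin replicate 2 inside the vehicle range.

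**Figure D3:**
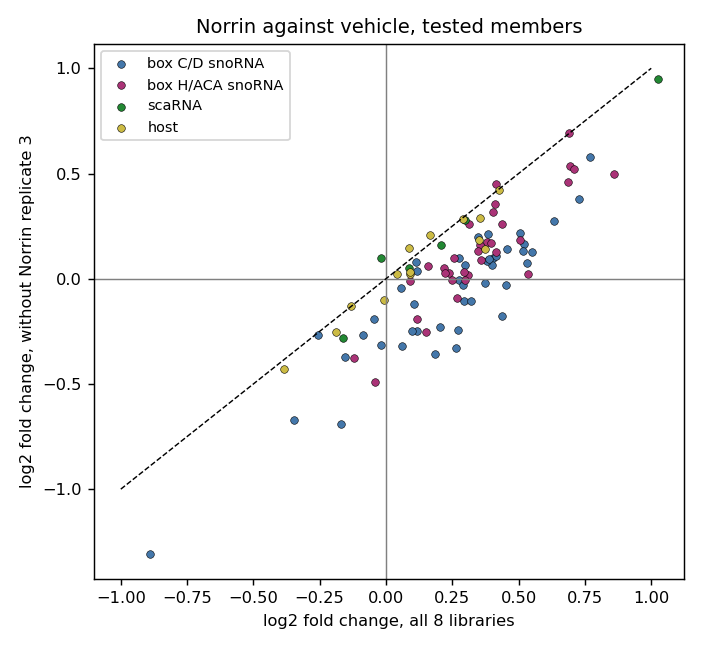
Log2 fold change of Norrin over vehicle for the 97 tested members with all 8 libraries (x axis) and without Norrin replicate 3 (y axis); the dashed line marks equality and colours mark the class. Most snoRNAs lie below the line, and their median moved from 0.30 to 0.06, while the hosts had a median of 0.09 in both.

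Host transcripts were less affected by Norrin replicate 3, with the largest ratios for Gas5 and Snhg8. That library was the highest of the 8 for 5 of 14 tested hosts, or 35.7%, against 13.2% of all tested rows. Of 14 tested hosts 0 passed the test, 10 had a log2 fold change above 0 and 2 had an unadjusted p under 0.05. Summed over 15 rows they had 172, 160, 165 and 156 CPM under vehicle and 195, 173, 243 and 157 CPM under Norrin, or 163 ± 7.03 against 192 ± 37.5 CPM (SD, n = 4 each). Gas5 and Snhg8, the most abundant hosts, made up most of the sum.

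Gas5, a host of box C/D snoRNAs named for its accumulation in growth-arrested cells, had 739, 677, 846 and 601 counts under vehicle and 972, 799, 1339 and 667 under Norrin. In CPM these were 59.0, 47.9, 54.5 and 48.3 against 65.8, 58.3, 98.0 and 49.2. Norrin replicate 3 was 1.70 times the other Norrin libraries, and Norrin replicates 2 and 4 lay inside the vehicle range. The log2 fold change was 0.37 ± 0.22 (adjusted p = 0.652), and 0.14 ± 0.10 without Norrin replicate 3 (adjusted p = 0.707).

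Snhg8 had 471, 463, 524 and 412 counts under vehicle and 657, 530, 792 and 455 under Norrin, or 34.3 ± 2.24 against 43.7 ± 10.5 CPM. Norrin replicates 1, 2 and 3 lay above all vehicle libraries and replicate 4 inside their range. The log2 fold change was 0.35 ± 0.13 (adjusted p = 0.273), and 0.46 ± 0.11 without Norrin replicate 4 (adjusted p = 0.0133). Without Norrin replicate 3 it was 0.19 ± 0.10 (adjusted p = 0.610). Norrin replicate 3 was 1.49 times the other Norrin libraries.

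Gas5 and Snhg8 are also the hosts whose rows count the largest share of the gene's span. The deposited RPKM values imply a counted length of 2556 bases for Gas5, 64.9% of its RefSeq span of 3939 bases, and of 786 bases for Snhg8, whose span is 785 bases. In GENCODE M21 all 10 snoRNA genes annotated within Gas5 overlap an exon of some Gas5 isoform, and so does the 1 within Snhg8. For Snhg1 the counted length was 476 of 2840 bases, or 16.8%, and for Snhg6 407 of 2094 bases, or 19.4%. GENCODE M21 isoforms also overlap all 8 snoRNA genes within Snhg1, which had a ratio of 1.28 in Norrin replicate 3. Snhg5, counted over 54.8% of its span, had a ratio of 0.842, and its highest library was Norrin replicate 1. Whether reads of the snoRNAs entered the host rows was not tested, and since use of strand in counting is not given, neither host and snoRNA nor antisense reads can be told apart with certainty.

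All other tested hosts had smaller ratios in Norrin replicate 3 than Gas5 and Snhg8. It was still the highest library for Snhg1, Snhg12 and Snhg15, at 1.28, 1.20 and 1.18 times the other Norrin libraries. Snhg1, the host of Snord22, had 15.7, 19.1, 17.6 and 18.2 CPM under vehicle and 18.7, 16.4, 20.9 and 14.1 CPM under Norrin, a log2 fold change of -0.01 ± 0.13 (95% interval -0.28 to 0.26, adjusted p = 0.990). Snhg6, the host of Snord87, had 104, 103, 85 and 68 counts under vehicle and 164, 102, 124 and 108 under Norrin, a log2 fold change of 0.43 ± 0.19 (adjusted p = 0.370). Its high library was Norrin replicate 1, and Norrin replicate 3 was 1.03 times the other Norrin libraries. Snhg20 had 5.19, 5.45, 6.89 and 5.38 CPM under vehicle and 4.27, 8.68, 8.35 and 8.12 CPM under Norrin, so that 3 Norrin libraries lay above and replicate 1 below all vehicle libraries, with a log2 fold change of 0.35 ± 0.22 (adjusted p = 0.596).

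The remaining hosts had small differences for their error. The log2 fold changes of Snhg5, Snhg12 and Snhg15 were 0.09 ± 0.16, 0.09 ± 0.21 and 0.09 ± 0.16, with adjusted p-values of 0.913, 0.932 and 0.901. Those of Snhg7, Snhg4 and Snhg17 were 0.04 ± 0.30, -0.13 ± 0.22 and -0.19 ± 0.16, with adjusted p-values of 0.982, 0.900 and 0.765. Snhg3, Snhg14 and Snhg10 were near 1 CPM and had large standard errors: 0.17 ± 0.40, 0.29 ± 0.42 and -0.38 ± 0.51, with adjusted p-values of 0.934, 0.881 and 0.871. Snhg10 had 1 count in Norrin replicate 2 and 11 to 15 in the other Norrin libraries. Snhg9 was too low to be tested, with 1 to 5 counts in each library.

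**Figure D4:**
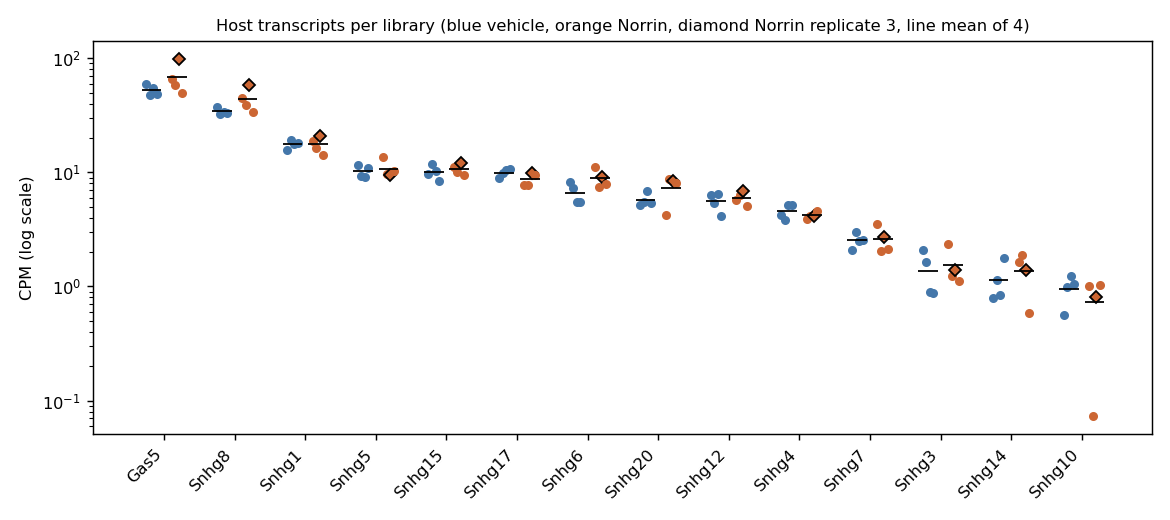
CPM of the 14 tested host transcripts in each library on a log scale (blue vehicle, orange Norrin, diamonds Norrin replicate 3, lines means of 4). Norrin replicate 3 stands above the rest for Gas5 at 98.0 CPM and for Snhg8 at 58.0 CPM, and lies among the other libraries for Snhg5 and Snhg6.

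Set beside the genes that contain them, snoRNAs had higher log2 fold changes than their hosts in most pairs. GENCODE M21 places 104 of 110 matched snoRNA and scaRNA rows within a longer gene on the same strand, 54 wholly in introns and 50 overlapping an exon of some isoform. These genes are 78 in number, and 10 of the rows lie in 7 of the member hosts. In 73 pairs with both partners tested, over 57 hosts, 0 hosts passed the test. Outside those pairs the host Rab3gap2 passed, while its snoRNA, Snora36b, was too low to be tested. Rab3gap2 had 124 ± 1.94 CPM under vehicle and 142 ± 5.10 CPM under Norrin. Its log2 fold change was 0.20 ± 0.05 (adjusted p = 0.0493). Within the pairs, the snoRNA had the higher log2 fold change in 61 of 73, with a median of 0.30 against 0.03 over the hosts. The pairs are not independent, since all come from the same libraries and some share a host. Norrin replicate 3 was a median of 1.83 times the other Norrin libraries for the snoRNAs and 0.989 times for the hosts.

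Rps3, a ribosomal protein gene that contains Snord15a and Snord15b, had 649 ± 17.2 CPM under vehicle and 645 ± 76.3 CPM under Norrin, a log2 fold change of -0.01 ± 0.07 (adjusted p = 0.986). It was 0.928 times as high in Norrin replicate 3 as in the other Norrin libraries, while the 2 snoRNAs were 1.43 and 1.53 times as high. Ncl, encoding nucleolin and containing Snora75 and Snord82, had a log2 fold change of -0.06 ± 0.03 (adjusted p = 0.465), against 0.86 ± 0.33 for Snora75 and 0.52 ± 0.28 for Snord82. Without Norrin replicate 3 these were 0.50 ± 0.35 and 0.17 ± 0.28. Rpl32, which contains Snora7a, had -0.00 ± 0.06 (adjusted p = 0.994), and Rpl12, which contains Snora65, had -0.30 ± 0.19 (adjusted p = 0.615). Within Snhg12, itself 1.20 times as high in Norrin replicate 3 as in the other Norrin libraries, Snora44, Snora61 and Snord99 were 2.48, 0.910 and 2.85 times as high, so the ratios of snoRNAs of a single host differed.

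Transcripts of genes for the core proteins of the snoRNA particles showed no called change. Of the box C/D core proteins, Fbl, the methyltransferase fibrillarin, had a log2 fold change of 0.32 ± 0.21 (adjusted p = 0.638), Nop56 0.11 ± 0.06 (0.538), Nop58 0.04 ± 0.06 (0.873) and Nhp2l1 0.04 ± 0.15 (0.957). Of the H/ACA core proteins, Dkc1, the pseudouridine synthase dyskerin, had 0.06 ± 0.08 (0.870), Nop10 0.33 ± 0.21 (0.612), Nhp2 -0.11 ± 0.09 (0.746) and Gar1 0.02 ± 0.14 (0.983). The 4 and 4 tested members had median log2 fold changes of 0.08 and 0.04, beside 0.00 over all rows.

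Of the genes for making and clearing these RNAs, 0 passed the test among 10 of particle assembly, 6 of Cajal bodies, 18 of nonsense-mediated decay, 16 of intron debranching and end processing, and 44 protein-coding snoRNA hosts. Their median log2 fold changes were -0.01, -0.02, -0.00, -0.00 and 0.04. Tgs1, which modifies the cap of some snoRNAs, was nearest to the threshold among Cajal body genes, with 40.0 ± 1.30 against 47.3 ± 3.97 CPM and a log2 fold change of 0.24 ± 0.08 (adjusted p = 0.164). Upf3a, a factor of nonsense-mediated decay, had 140 ± 12.5 against 121 ± 7.41 CPM and -0.21 ± 0.06 (adjusted p = 0.0916), and it passed without Norrin replicate 4 at -0.24. The most abundant members of these lists had similar means in both groups: Hsp90ab1 4338 ± 116 and 4239 ± 116 CPM, Eef2 2828 ± 93.2 and 2767 ± 94.7, Nolc1 166 ± 11.4 and 167 ± 22.6, Sart3 110 ± 2.58 and 105 ± 7.32, Smg1 316 ± 18.9 and 332 ± 16.4, Upf1 163 ± 5.55 and 161 ± 12.6, Xrn2 144 ± 3.28 and 153 ± 6.02. The 8 endothelial markers summed to 7101 to 7348 CPM under vehicle and 6843 to 7089 CPM under Norrin. One of them, the adhesion molecule gene Esam, was past the threshold, at 446 ± 14.4 against 551 ± 22.7 CPM (adjusted p = 1.79e-05), and 5 of 8 had an unadjusted p under 0.05. Esam was the only one of the 8 with a log2 fold change above 0. The median over the 8 was -0.08 and the lowest value was -0.14. Markers of other cells with a row were low: 3 of 5 mural markers summed to at most 8.24 CPM, 2 of 4 fibroblast markers to at most 7.03 CPM, and 1 of 3 neuron markers was at most 3.03 CPM. The rows of listed astrocyte and microglia markers numbered 0.

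Large deposited folds among the members rested on libraries with few or no reads. The authors' deposited table gives 7 members a fold of 2 or more and 6 members a fold of 0.5 or less, against 2.09% and 3.68% of all rows. All 13 had too few counts to be tested, and 9 of them had 0 counts in a library. The deposited group RPKM behaves as a geometric mean of 4 replicate RPKM values in which a replicate with 0 counts is replaced by a small number, a median of 0.000857 RPKM over 137 rows with a single 0. Across the table, 110 of 114 rows with 0 counts in exactly 1 vehicle library and none at 0 under Norrin had a fold of 2 or more.

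Snord88c has the highest deposited fold, 15.5 in the authors' deposited table, on counts of 1, 2, 5 and 0 under vehicle and 5, 6, 19 and 1 under Norrin. The ratio of its mean CPM values was 4.13. Snord38a, with a deposited fold of 12.1, had 1, 8, 5 and 0 counts against 2, 4, 15 and 5, a ratio of mean CPM of 1.96. Snord42a, Snord4a and Snord53 have deposited folds of 9.74, 9.28 and 7.57 in the authors' deposited table, and their ratios of mean CPM were 1.10, 1.43 and 1.44. Each of these 5 had 0 counts in 1 vehicle library.

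The lowest deposited folds were of the same kind. Snord90 has a fold of 0.115 in the authors' deposited table on counts of 6, 2, 4 and 1 under vehicle and 4, 1, 3 and 0 under Norrin, a ratio of mean CPM of 0.588. Snord43, with a deposited fold of 0.165, had 4, 4, 3 and 1 counts against 3, 4, 6 and 0, and its ratio of mean CPM was 1.07, on the other side of 1. Snora36b, Snord91a and Snord98 have deposited folds of 0.150, 0.134 and 0.445 in the authors' deposited table, beside ratios of mean CPM of 0.819, 0.626 and 0.493. Snord98 was the one of these 5 with reads in every library. The 10 untested snoRNAs and scaRNAs with the most reads, from Scarna3a with 70 counts in all to Snord52 and Snord1c with 55, had at least 1 count in every library. Scarna3a had 7, 4, 4 and 4 counts under vehicle and 20, 3, 25 and 3 under Norrin, again with Norrin replicates 1 and 3 high.

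**Figure D5:**
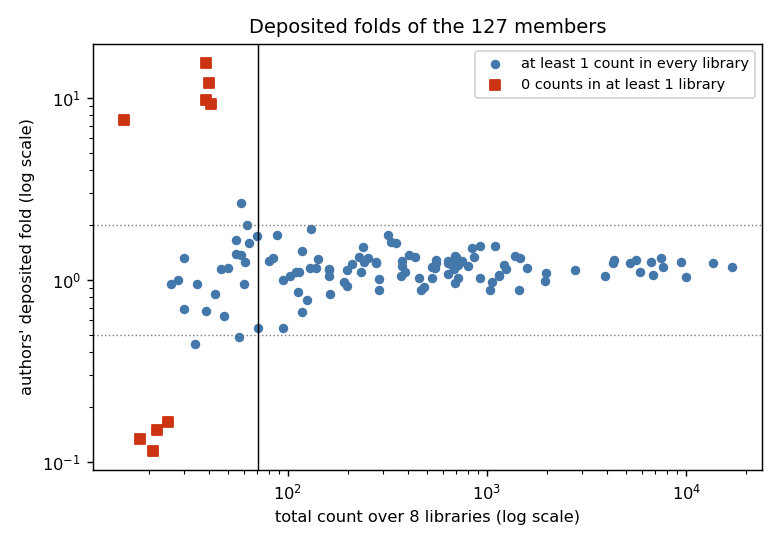
The authors' deposited fold of Norrin over vehicle against the total count over the 8 libraries for the 127 members, both on log scales; dotted lines mark folds of 2 and 0.5, and the vertical line separates untested from tested rows. The 9 members with 0 counts in a library (red squares) lie above 7 or below 0.2, and tested members lie between the dotted lines.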

How the data were processed

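The authors deposited 1 table with estimated counts per gene for 8 libraries, together with an RPKM value per group and the ratio of the 2 RPKM values as a fold. The aligner STAR is named per the submitters' processing notes. Not given in the sources used here are its version, the genome build, the counting tool and the use of strand. Total counts ran from 12463939 to 15220581 per library, and 3 counts equal 0.193 to 0.241 CPM (counting error only). snoRNAs and scaRNAs took 0.101% to 0.186% of counts.

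Counts were rounded (763 were not whole), and 1 row without a name was left out. The test was the two-sided quasi-likelihood test of edgeR 4.0.16 (R 4.3.3), with filterByExpr, TMM and a robust fit, over 13666 rows, with Benjamini-Hochberg adjustment and a threshold of 0.05. The step was tested on simulated data. DESeq2 1.42.0, limma-voom (limma 3.58.1), other scalings and filters, the replicate number as a block, and leaving out libraries were alternatives. The coefficient of variation between replicates was 11.2%. Libraries of a group differed beyond sampling noise. Host genes were read from GENCODE M21, and lengths and spans from RefSeq (GRCm38.p6), where 112 snoRNA and scaRNA rows were matched. The deposited RPKM values imply a length for 111 of them, and in all 111 it was the RefSeq length.

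Bcd1, an older name of Znhit6, was counted once. Members and lists were chosen with earlier results of these data known. The text names tested members, the 10 untested snoRNAs with most counts, the 5 highest and 5 lowest deposited folds, core proteins, and of other lists the abundant members. Tgs1, Upf3a, Rps3, Ncl, Rpl32, Rpl12, Rab3gap2 and Esam were named after their values were seen.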

Additional observations from a re-analysis of the deposited data

Results flagged for a closer look

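In 17 of 220 groups of 4 libraries, over tested members, core proteins and 5 summed classes, a single library lay apart from the other 3 by Dixon's test, where chance gives about 1 in 20. Of these, 11 were Norrin replicate 3, each time high: Snord49b at 6.15 CPM, Snord83b at 15.3, Snora28 at 11.8, Snora41 at 5.12, Snora33 at 8.56, Snora34 at 12.7, Snord58b at 11.4, Snora74a at 66.6, Snord118 at 53.1, Snord99 at 13.5 and Snord100 at 7.03 CPM. The other Norrin libraries ran from 1.77 to 1.96 CPM for Snora41, from 6.37 to 6.57 CPM for Snora34 and from 51.7 to 52.7 CPM for Snora74a.

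Snhg20 had a library apart in both groups, with vehicle replicate 3 high at 6.89 CPM and Norrin replicate 1 low at 4.27 CPM. Among vehicle libraries, Snord57 was high in replicate 1 at 6.79 CPM, Snord2 was low in replicate 1 at 1.20 CPM, Snord35b was high in replicate 3 at 1.42 CPM, and Fbl was high in replicate 1 at 5.75 CPM.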

How the results depend on the processing

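Tested snoRNAs past the threshold numbered 0 with DESeq2 size factors, other filters, DESeq2 and limma-voom, and leaving out each library in turn gave 0 to 2; hosts gave 0 to 1. Without Norrin replicate 4, Snora65, Snora7a and Snhg8 passed, and over all rows 235 were higher and 217 lower. With the replicate block 4 snoRNAs passed: Snora7a (0.65), Snora81 (0.42), Snord15a (0.33) and Snord15b (0.25). By their correlations (-0.019, 0.017, 0.038 and 0.074), libraries of the same number did not deviate together, and the numbers were not taken as pairs. The summed snoRNA and scaRNA level was nonetheless higher in replicates 1 and 3 than in replicates 2 and 4 of both groups. Under vehicle it was 1225 and 1164 against 1012 and 1048 CPM, and under Norrin 1357 and 1877 against 1133 and 1063 CPM. Whether replicates of the same number share anything was not tested. With the block 402 rows passed in all, against 296.

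The share of tested snoRNAs above 0 ran from 60.2% to 91.6% with each library left out, lowest without Norrin replicate 3; without Norrin replicates 1 and 3 together, chosen after seeing the data, it was 38.8%, and 42.9% of hosts were above 0. The log2 ratio of summed levels ran from 0.09 to 0.39 for snoRNAs and from 0.10 to 0.32 for hosts.

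Among named genes the sign of the log2 fold change turned when a library was left out for Snhg1 (-0.10 to 0.082), Snhg3 (-0.13 to 0.43), Snhg5 (-0.053 to 0.16), Snhg7 (-0.14 to 0.14), Snhg12 (-0.025 to 0.17), Snord17 (-0.044 to 0.11), Snord118 (-0.12 to 0.23), Snord99 (-0.36 to 0.35), Snord14d (-0.24 to 0.47), Snord58b (-0.18 to 0.63), Snora44 (-0.49 to 0.16), Snora61 (-0.00043 to 0.57), Scarna10 (-0.10 to 0.10), Nhp2l1 (-0.016 to 0.15), Gar1 (-0.066 to 0.091), Rps3 (-0.093 to 0.024) and Rpl32 (-0.076 to 0.047), whose lowest and highest values are given. Snord17, Snord118, Snord99, Snord14d and Snord58b turned only without Norrin replicate 3. The cause was not tested.

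Depth limits the members: 30 of 127 could not be tested, and the median SE of a tested snoRNA was 0.29 on the log2 scale, against 0.13 over all rows.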
